A study of Sus scrofa with 4 samples.

Results

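Cholesterol synthesis, uptake and control genes are the enzymes, carriers and regulators that set how much cholesterol a cell holds. The group was defined as 31 gene symbols, and 30 of them named a feature among the 31908 features of the count tables. EBP, a sterol isomerase, named none. The 30 were ordered by role into mevalonate steps (7 genes), squalene and sterol steps (9 genes), uptake and transport in the cell (4), storage and release (2), export (1), control of the SREBP factors (5) and LXR receptors (2). None of them was a marker in the gates that sorted the cells into classes.

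The study profiled single cells of pig testis with 10x Genomics 3′ v3 chemistry in 4 libraries, 1 each at 7, 30, 60 and 90 days of age. The labels give no treatment, genotype or breed, and they do not say how many animals went into a library. With 1 library per age, age and library cannot be told apart, and no test of age was made. Class differences within a library were repeated over the 4 libraries and were tested.

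Animal cells make cholesterol from acetyl-CoA, through mevalonate and squalene, or take it up from lipoproteins. The SREBP transcription factors raise the synthesis and uptake genes when membrane sterol is low, while INSIG proteins hold SREBP and its escort SCAP in the endoplasmic reticulum when sterol is ample. Leydig cells of the testis turn cholesterol into steroids and hold it as esters, Sertoli cells nurse the germ cells and clear their remains, and germ cells remodel their membranes as they mature.

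The libraries held 69602 cell barcodes, of which 49439 cells were used, from 10841 to 14895 per library, with medians of 2433 to 4994 unique molecular identifiers (UMIs, counts of distinct captured transcripts) per cell. The labels name 86453 captured cells. Between 255 and 314 barcodes of each library also occurred in another library. Cells were placed in classes by the summed share of marker genes, which gave 1370 Leydig-like, 14896 Sertoli-like and 3934 germ-like cells. Smaller gates held stromal-like, endothelial-like, macrophage-like and lymphoid-like cells. Cells outside the Leydig, Sertoli and germ gates made up the other cells, except cells with mixed markers past a Leydig, Sertoli or germ threshold, which were left out. Of the other cells, 4318 of 5120, 6539 of 7940, 2713 of 6170 and 2544 of 6170 lay in a smaller gate at 7, 30, 60 and 90 days. The Leydig-like class held 446, 578, 65 and 281 cells at 7, 30, 60 and 90 days, and its 5 marker genes in the files summed to 67301, 66695, 22695 and 34444 CPM (UMI counts scaled to a common total of 1e+06 per class and library), against at most 838 CPM in the Sertoli-like class. The 60-day Leydig-like sum therefore rests on 65 cells and 242435 UMIs, and it carried 14664 CPM of immediate early genes, which tissue handling can induce, against 2998 to 6815 CPM at the other ages. The 11 spermatid markers stood at 0 to 58.5 CPM in every class at 7, 30 and 60 days. At 90 days they stood at 7727 CPM in the germ-like class and at 1175 to 2828 CPM in each other class. Levels below are CPM of the UMIs summed over a class in 1 library, given in the order 7, 30, 60 and 90 days. They compare classes and ages for 1 gene, not genes with each other.

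Leydig-like cells had the most synthesis transcript of the 6 gated classes compared. The 16 synthesis genes in the files summed to 2676, 4673, 1196 and 1927 CPM in Leydig-like cells and to 712, 1061, 882 and 1135 CPM in Sertoli-like cells. The sums were 384, 384, 517 and 930.0 CPM in germ-like cells and 275, 242, 259.9 and 473 CPM in macrophage-like cells. Leydig-like cells were thus highest in every library, and the gap to Sertoli-like cells was widest at 30 days and narrowest at 60 days. Among 6 gated classes (lymphoid-like cells left out), Leydig-like cells had the highest level of 22, 22, 17 and 16 of the 30 genes at the 4 ages. They were highest in all 4 libraries for 11 genes, namely HMGCS1, MVK, MVD, IDI1, FDFT1, LSS, TM7SF2, SC5D, SREBF2, SCAP and SOAT1. The macrophage-like class was highest in all 4 for NPC2, and no other class was highest throughout for any of these genes. These counts were made for the 30 genes only, so no share of all genes stands beside them.

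**Figure D1:**
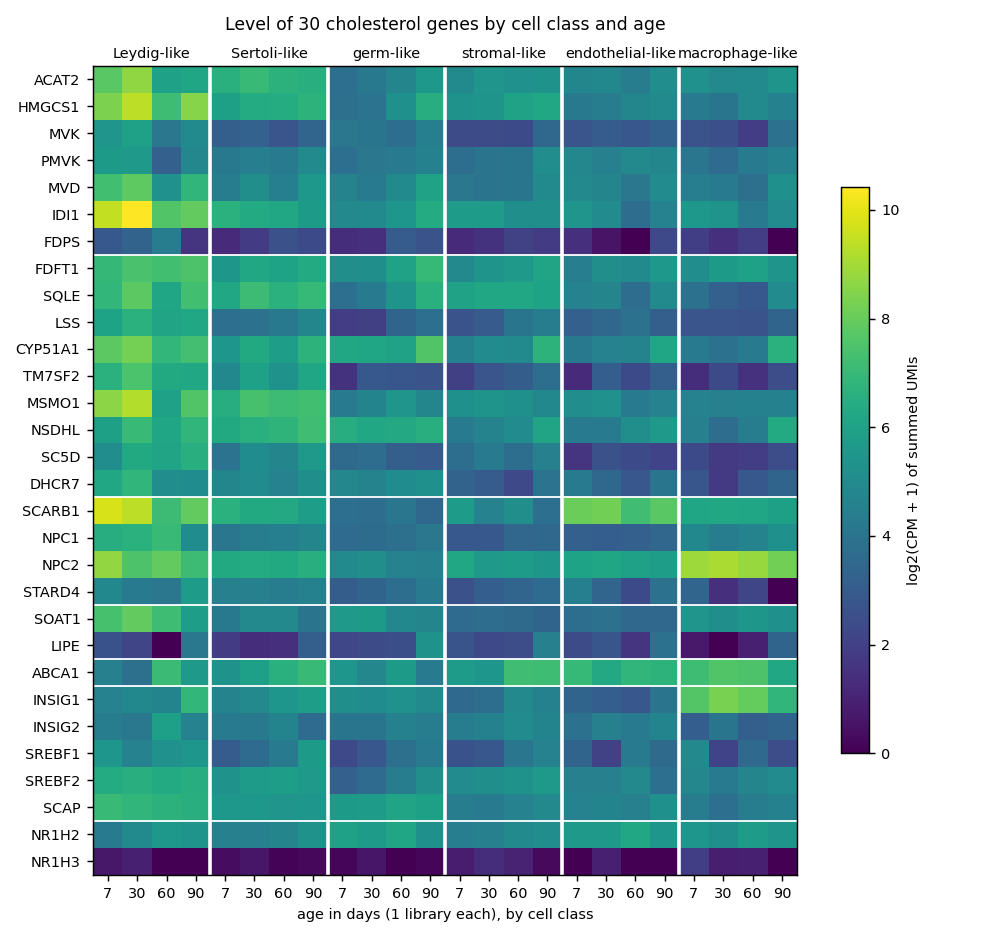
Heat map of the level of 30 genes (rows, ordered by role, white lines between roles) in 6 cell classes and 4 ages (columns), as log2(CPM + 1) of summed UMIs. Colours compare columns within a row. Leydig-like columns are brightest for 11 genes in all 4 libraries, a count made for these 30 genes only. NPC2 and INSIG1 are bright in macrophage-like cells.

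Against Sertoli-like cells, Leydig-like cells were higher for 15 of the 29 genes tested and lower for none (edgeR quasi-likelihood test with library as block, Benjamini-Hochberg adjusted p under 0.05, n = 4 libraries per class). Of all 12984 genes tested in this comparison, 15.6% were higher and 18.4% lower. At an unadjusted p under 0.05, 20 members were higher and 1 lower, and DESeq2 called 18 higher and 0 lower. Shares of all genes are not given for the unadjusted and DESeq2 counts, so these cannot be set against a background. The median log2 fold change was 1.31 over the members and -0.05 over all genes. NR1H3, the LXR alpha receptor, had at most 24 UMIs in any class and library and was too low to test.

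The mevalonate steps gave 4 higher genes of 7. HMGCS1 makes HMG-CoA, the substrate of the step that feeds the whole route, and lies at chromosome 16, 27936225 to 27957261 in Sscrofa11.1. HMGCS1 stood at 330.4, 668, 144 and 366 CPM in Leydig-like cells and at 59.0, 83.2, 85.8 and 105 CPM in Sertoli-like cells. The groups did not overlap, and the log2 fold change was 2.22 ± 0.44 (SE, adjusted p = 0.00617). IDI1, the isomerase that makes the reactive isoprene unit, stood at 703, 1367, 189.7 and 243 CPM against 98.6, 81.6, 71.8 and 50.8 CPM. Its log2 fold change was 2.82 ± 0.49 (adjusted p = 0.00338), and each Leydig-like value lay above each Sertoli-like value.

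MVK, mevalonate kinase, stood at 41.7, 61.8, 16.5 and 30.3 CPM against 7.83, 8.70, 5.79 and 9.67 CPM in Sertoli-like cells, again without overlap (2.42 ± 0.35, adjusted p = 0.0014). Its 60-day Leydig-like level rests on few UMIs, since that class sum held 242435 UMIs in all, and the lack of overlap takes no account of counting error. MVD, the decarboxylase of the same branch, was higher in 4 of 4 libraries, with 151, 226, 37.1 and 115 CPM against 20.1, 34.7, 21.8 and 46.3 CPM (2.23 ± 0.46, adjusted p = 0.00737). Here the 60-day Leydig-like value fell inside the Sertoli-like range. ACAT2, the thiolase at the entry of the route, was higher in Leydig-like cells at 7 and 30 days (217 and 409 CPM against 96.5 and 132 CPM). It was lower there at 60 and 90 days (61.9 and 71.8 CPM against 102 and 94.3 CPM) and did not pass the test (adjusted p = 0.315). PMVK, phosphomevalonate kinase, split the same way over the ages (adjusted p = 0.165), and FDPS, which joins isoprene units, had only 2 to 31 UMIs in Leydig-like cells (adjusted p = 0.0511).

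Of the 9 squalene and sterol genes tested, 5 were higher in Leydig-like cells. LSS closes squalene epoxide into the first sterol ring. It stood at 64.3, 100.8, 66.0 and 74.8 CPM in Leydig-like cells and at 12.9, 13.9, 17.3 and 26.5 CPM in Sertoli-like cells, with no overlap (log2 fold change 2.35 ± 0.32, adjusted p = 0.00106). FDFT1, squalene synthase, was flatter over the ages at 122, 169, 153 and 179 CPM, each above the Sertoli-like 44.5, 73.0, 65.8 and 82.5 CPM (1.41 ± 0.22, adjusted p = 0.00179). SC5D, a late desaturase, stood at 33.7, 80.3, 66.0 and 95.03 CPM against 14.5, 32.4, 25.8 and 47.5 CPM and passed at 1.39 ± 0.21 (adjusted p = 0.00173). CYP51A1, the sterol 14-demethylase, passed at 1.68 ± 0.38 (adjusted p = 0.011) and TM7SF2, a sterol reductase, at 1.30 ± 0.37 (adjusted p = 0.0271).

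The other 4 sterol genes did not pass. SQLE, squalene epoxidase, had 118, 219.6, 70.1 and 151 CPM in Leydig-like cells against 72.2, 141, 99.3 and 126 CPM in Sertoli-like cells (0.50 ± 0.30, adjusted p = 0.238). MSMO1, the methyl sterol oxidase, was higher in 3 of 4 libraries and lower at 60 days (adjusted p = 0.197). DHCR7, which reduces the last double bond to cholesterol, missed the threshold at an adjusted p of 0.052. NSDHL, a sterol dehydrogenase, had a log2 fold change of -0.05 ± 0.27 (adjusted p = 0.91) and was higher in Leydig-like cells only at 30 days.

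Of the 4 uptake genes 3 were higher in Leydig-like cells, as was 1 of the 2 storage genes. SCARB1 is the receptor that takes cholesterol ester from high density lipoprotein, and lies at chromosome 14, 28301421 to 28393568. SCARB1 stood at 886, 668, 140.2 and 238 CPM in Leydig-like cells and at 98.98, 79.3, 76.9 and 56.4 CPM in Sertoli-like cells (log2 fold change 2.52 ± 0.48, adjusted p = 0.00499). SOAT1, which turns cholesterol into ester for storage, stood at 166, 242, 144 and 55.6 CPM against 17.5, 29.1, 28.8 and 15.05 CPM (2.83 ± 0.35, adjusted p = 0.000633). Neither gene overlapped between the classes. The lysosomal exit pair NPC1 and NPC2 was also higher, by 2.18 ± 0.42 (adjusted p = 0.00517) and 1.58 ± 0.35 (adjusted p = 0.0102). STARD4, a soluble sterol carrier, did not pass (0.51 ± 0.29, adjusted p = 0.211). LIPE, the hormone-sensitive lipase that frees stored cholesterol, had 25, 12, 0 and 17 UMIs in Leydig-like cells and did not pass either (adjusted p = 0.0708).

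Of the 5 control genes 2 were higher, and the export gene did not pass. ABCA1, which loads cholesterol onto lipoprotein at the cell surface, stood at 22.3, 13.4, 136 and 48.5 CPM in Leydig-like cells and at 39.2, 58.0, 96.1 and 133 CPM in Sertoli-like cells. The 60-day library ran against the other 3, and the difference did not pass (-0.83 ± 0.35, adjusted p = 0.0996). Without the 60-day library it passed at -1.20 (adjusted p = 0.0384). SREBF2, the SREBP gene most tied to cholesterol synthesis, was level over the ages in Leydig-like cells at 85.1, 91.9, 82.5 and 89.0 CPM. Each value lay above the Sertoli-like 38.8, 51.2, 54.2 and 49.4 CPM (1.04 ± 0.23, adjusted p = 0.00939). SCAP was higher by 1.46 ± 0.22 (adjusted p = 0.00153). INSIG1, INSIG2, SREBF1 and the LXR beta gene NR1H2 did not pass, with log2 fold changes of 0.36, 0.68, 1.31 and 0.40. INSIG1 was lower in Leydig-like cells in 3 libraries and higher in 1, at 90 days, and its log2 fold change was 0.16 with CPM scaling.

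**Figure D2:**
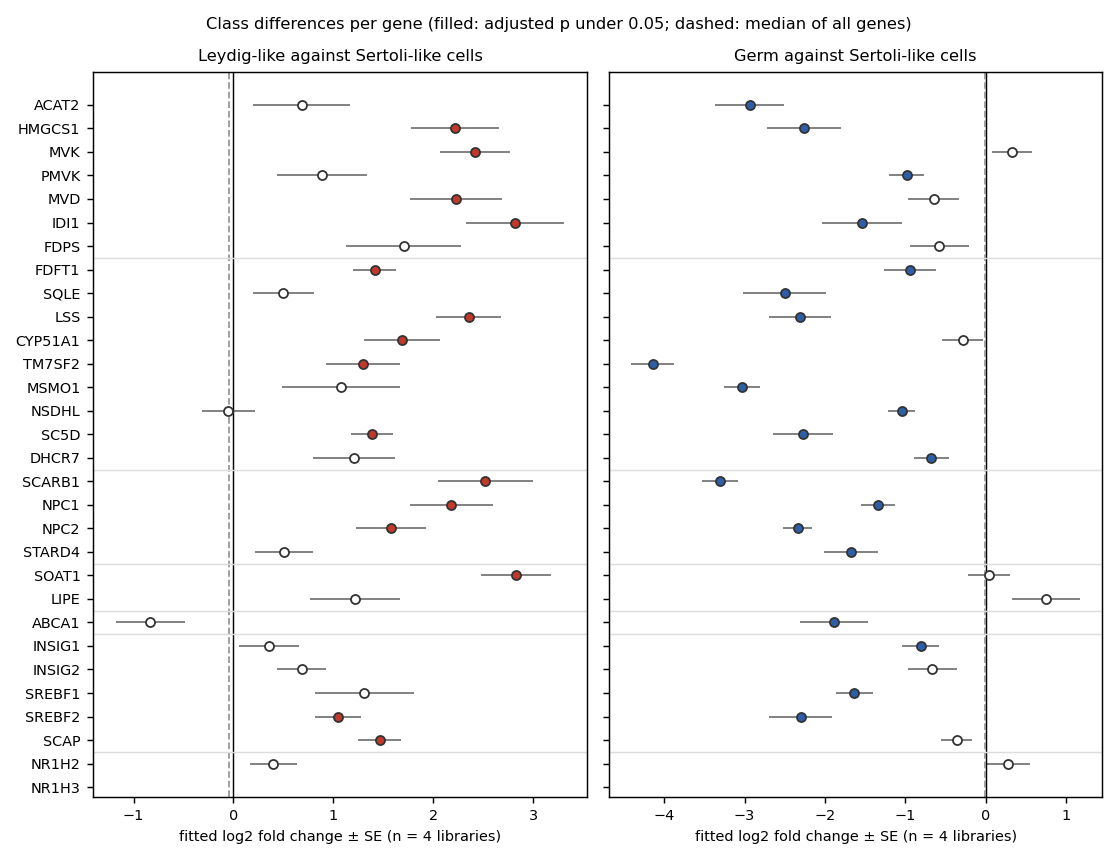
Fitted log2 fold change with its standard error (n = 4 libraries) per gene for Leydig-like against Sertoli-like cells (left) and germ-like against Sertoli-like cells (right). Filled points passed an adjusted p of 0.05 (15 on the left, 20 on the right), dashed lines mark the median of all genes, and NR1H3 was not tested. With CPM scaling the right panel has 13 lower and 3 higher genes, and DHCR7, SCAP, MVD, FDPS, CYP51A1 and INSIG2 change sign.

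Some of these calls rested on single libraries. Of the 15 higher genes, 12 stayed called when each library was left out in turn. TM7SF2 was lost without the 7-day (adjusted p = 0.0925), the 30-day (0.144) or the 60-day library (0.0673). CYP51A1 (adjusted p = 0.0592) and SREBF2 (adjusted p = 0.0756) were lost without the 30-day library. Leydig-like cells also had a higher mitochondrial share (9.10, 9.35, 6.02 and 7.49% of UMIs) than Sertoli-like cells (4.18, 4.85, 4.15 and 4.77%), and its part in the result was not tested.

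Germ-like cells were compared with Sertoli-like cells next. With the main TMM scaling, 20 of 29 genes were lower and none higher (edgeR, n = 4 libraries per class), while 27.4% of all 17915 genes tested were lower and 27.5% higher. At an unadjusted p under 0.05 the counts were 20 lower and 0 higher, and DESeq2 called 19 lower and 0 higher, again without shares of all genes. The median log2 fold change was -1.35 over the members and -0.01 over all genes. The count of 20 lower genes depends on scaling. With plain CPM scaling, chosen after the data were seen, the median of all genes moved to 0.70, 13 members were lower and 3 higher, and 14.3% of all genes were lower and 43.5% higher. The 3 were MVK (1.04), LIPE (1.46) and NR1H2 (1.002). The 7 calls lost were ABCA1, IDI1, NSDHL, PMVK, FDFT1, INSIG1 and DHCR7, and DHCR7 turned from -0.68 to 0.04.

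All 4 uptake genes and 8 of 9 sterol genes were lower in germ-like cells in the TMM fit. TM7SF2 stood at 1.89, 6.401, 5.87 and 5.35 CPM in germ-like cells and at 28.4, 61.3, 39.5 and 71.6 CPM in Sertoli-like cells. Its log2 fold change was the lowest of the members at -4.14 ± 0.27 (adjusted p = 0.000359), or -3.43 with CPM scaling, and the gene lies at chromosome 2, 7076778 to 7081502. SCARB1 stood at 12.8, 12.3, 15.9 and 10.3 CPM in germ-like cells, each below the lowest Sertoli-like value (-3.31 ± 0.22, adjusted p = 0.000359, and -2.59 with CPM scaling). MSMO1 followed with 18.8, 24.8, 41.9 and 26.8 CPM against 89.6, 167, 138 and 153 CPM (-3.03 ± 0.22, adjusted p = 0.000408, and -2.32 with CPM scaling). These germ-like and Sertoli-like ranges lay apart.

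ACAT2 had 13.0, 17.3, 25.6 and 46.6 CPM in germ-like cells, below the Sertoli-like levels in 4 of 4 libraries (-2.94 ± 0.43, adjusted p = 0.00241). NPC2 (-2.34 ± 0.18, adjusted p = 0.000431) and SREBF2 (-2.30 ± 0.39, adjusted p = 0.00394) were also lower without overlap. SQLE was lower in 4 of 4 libraries (-2.50 ± 0.52, adjusted p = 0.00792), but the 90-day germ-like level of 97.3 CPM lay within the Sertoli-like range. NSDHL was lower by less (-1.05 ± 0.17, adjusted p = 0.00314). CYP51A1 did not pass, at 75.9, 69.8, 63.3 and 193 CPM in germ-like cells against 43.9, 78.8, 55.0 and 104 CPM (adjusted p = 0.361). SOAT1, MVK, LIPE and NR1H2 did not pass in the TMM fit, and their log2 fold changes were above 0.

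Leaving out libraries ended further germ-like calls. Of the 20, 15 stayed called in each of the 4 fits. IDI1 (adjusted p of 0.115 to 0.159), FDFT1 (0.127 to 0.232) and DHCR7 (0.0724 to 0.265) were lost without any 1 of the 7-, 30- and 60-day libraries. PMVK was lost without the 7-day (0.0577) or 30-day library (0.0798), and INSIG1 without the 30-day (0.0984) or 60-day library (0.111).

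Leydig-like against germ-like cells shared both sums with the comparisons above. It gave 21 higher members and 0 lower of 29, where 18.5% of all 13905 genes were higher and 34.6% lower (edgeR). At an unadjusted p under 0.05 there were 24 higher and 0 lower, and DESeq2 called 23 higher and 0 lower, also without shares of all genes. The fitted log2 fold changes reached 5.35 ± 0.62 for SCARB1 (adjusted p = 0.000518), 4.91 ± 0.49 for TM7SF2 (adjusted p = 0.00028) and 4.16 ± 0.60 for LSS (adjusted p = 0.00117). HMGCS1 followed at 3.95 ± 0.78 (adjusted p = 0.00409) and IDI1 at 3.85 ± 0.84 (adjusted p = 0.00597). SREBF1, which leans toward fatty acid genes, and SREBF2 were higher by 2.41 and 2.85. The members' median was 2.27, against -0.39 for all genes. Leaving out a library ended the calls of MVK (adjusted p = 0.0961 without the 30-day library), of CYP51A1 (0.0561 to 0.119) and of INSIG2 (0.0729 to 0.141), the last pair without the 7-, 30- or 60-day library.

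Against the other cells, Leydig-like cells were higher for 23 members and lower for 1, with 13.2% of all 14834 genes higher and 23.1% lower. All 9 sterol genes, 6 of 7 mevalonate genes and all 4 uptake genes were higher, the exception being PMVK (adjusted p = 0.0544). In the other cells TM7SF2 stood at 3.13, 8.01, 11.3 and 12.95 CPM, IDI1 at 55.8, 52.1, 42.7 and 62.0 CPM, SOAT1 at 16.8, 15.5, 21.2 and 15.5 CPM and LSS at 6.73, 7.35, 14.7 and 16.8 CPM. TM7SF2 had the highest fold at 4.01 ± 0.49 (adjusted p = 0.000198), followed by IDI1 at 3.39 ± 0.51, SOAT1 at 3.27 ± 0.37 and LSS at 3.16 ± 0.36, each in 4 of 4 libraries (adjusted p = 0.000659, 0.00014 and 0.000143). ABCA1 was the lower gene (-0.89 ± 0.30, adjusted p = 0.0418). That call was lost without the 7-day (adjusted p = 0.102) or the 30-day library (0.242), and FDPS was lost without the 30-day (0.112) or the 60-day library (0.0879). SCARB1 was not low in every other class, since endothelial-like cells stood at 271, 293, 147 and 213 CPM, above Leydig-like cells at 60 days.

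In macrophage-like cells 8 of 9 sterol genes were lower than in Sertoli-like cells. In all, 6 of 29 genes were higher and 13 lower, where 21.2% of all 12998 genes were higher and 24% lower (edgeR, n = 4 libraries). The share of higher members, 20.7%, was near that of all genes. With CPM scaling the median of all genes moved from -0.12 to -0.57, and 5 members were higher and 15 lower, beside 15.4% and 38.3% of all genes. The 13 lower genes were 3 mevalonate genes, 8 of 9 sterol genes, STARD4 and SCAP. TM7SF2 stood at 1.58, 4.07, 1.78 and 4.55 CPM in macrophage-like cells, below each Sertoli-like value given above, and had the lowest fold change (-3.64 ± 0.29, adjusted p = 1.38e-05). SQLE stood at 13.9, 8.13, 6.23 and 31.9 CPM (-2.65 ± 0.35, adjusted p = 0.000259). SC5D stood at 4.10, 2.44, 2.67 and 4.55 CPM (-2.31 ± 0.40, adjusted p = 0.00135). Neither overlapped the Sertoli-like values. This class had only 76 cells at 90 days.

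The 6 higher genes were INSIG1, NPC2, ABCA1, SOAT1, NR1H2 and NPC1. INSIG1, the sterol-regulated anchor of SCAP, stood at 199.7, 321, 245 and 114 CPM in macrophage-like cells and at 24.1, 29.3, 43.0 and 54.7 CPM in Sertoli-like cells, without overlap (3.02 ± 0.44, adjusted p = 0.000502). NPC2, which hands sterol to NPC1 inside the lysosome, stood at 478, 548, 449 and 291 CPM against 78.3, 84.9, 79.8 and 94.8 CPM (2.78 ± 0.29, adjusted p = 6.95e-05). SOAT1 was higher by 1.26 ± 0.24 (adjusted p = 0.00251) and NR1H2 by 1.16 ± 0.27 (adjusted p = 0.0065). ABCA1, a known LXR target, stood at 144, 194, 182 and 72.8 CPM against 39.2, 58.0, 96.1 and 133 CPM, and it was higher at 7, 30 and 60 days but lower at 90 days (1.48 ± 0.47, adjusted p = 0.0297). NPC1 passed at 0.81 ± 0.25 (adjusted p = 0.0258) but not with CPM scaling (0.38, adjusted p = 0.22).

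Of these 19 calls, 11 stayed in each fit that left out 1 library. ABCA1 (adjusted p of 0.106 to 0.149) and NPC1 (0.076 to 0.193) were lost without the 7-, 30- or 60-day library, and NR1H2 without the 60-day library (0.0562). Among the lower genes, LSS was lost in all 4 fits (0.0506 to 0.141). IDI1 (0.0639 and 0.152), CYP51A1 (0.159 and 0.118) and STARD4 (0.0695 and 0.0675) were lost without the 30-day and without the 60-day library, and SCAP without the 30-day library (0.112).

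**Figure D3:**
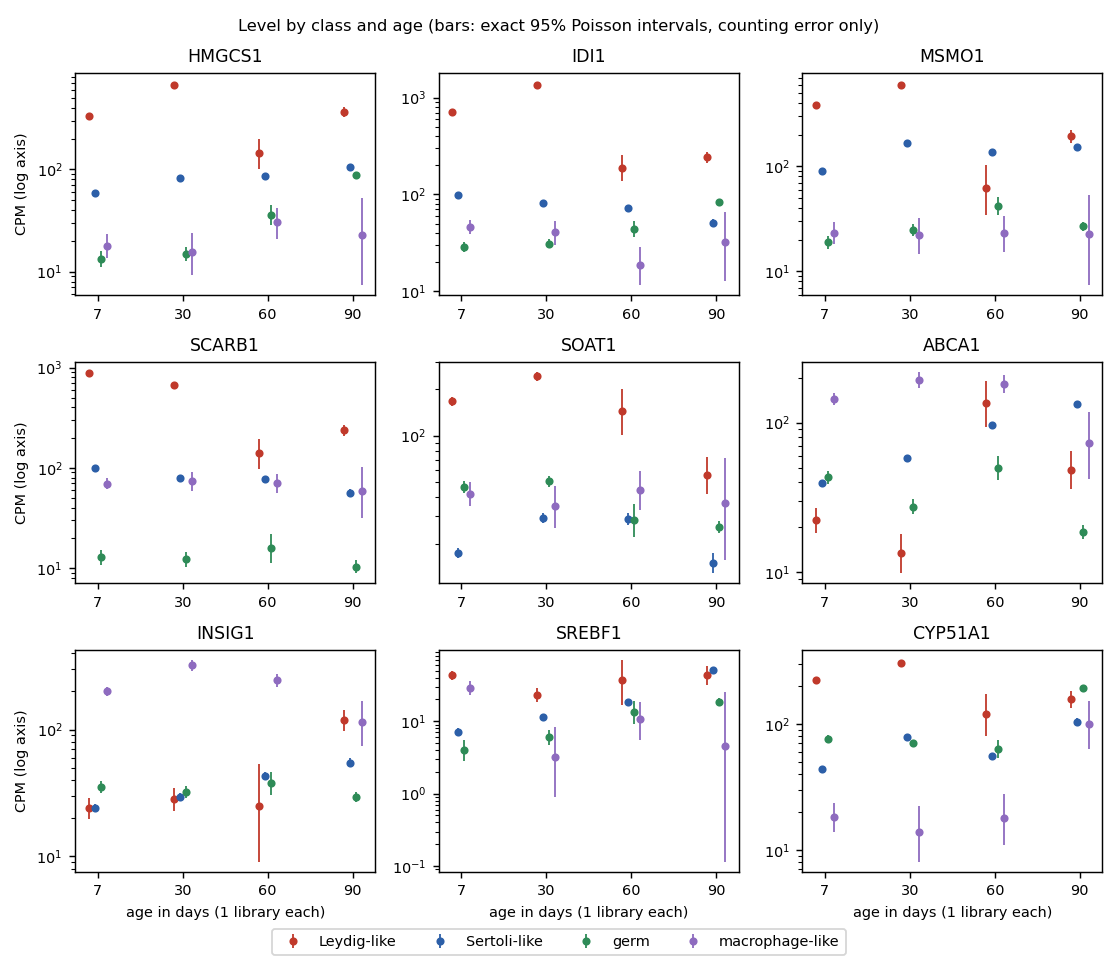
Level in CPM (log axis, scaled per gene) of 9 genes against age in days in Leydig-like, Sertoli-like, germ-like and macrophage-like cells, with 1 library per age and bars for exact 95% Poisson intervals that cover counting error only. HMGCS1, IDI1 and SCARB1 are highest in Leydig-like cells at each age, INSIG1 is highest in macrophage-like cells at 7, 30 and 60 days, and ABCA1 at 90 days is higher in Sertoli-like than in macrophage-like cells.

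A list of 27 other genes of cholesterol handling, 26 of them in the files, showed mixed directions. Leydig-like against Sertoli-like cells gave 8 higher and 3 lower of 23 tested, and germ-like against Sertoli-like cells 3 higher and 12 lower of 24. Macrophage-like against Sertoli-like cells gave 7 higher and 7 lower of 24. LIPA, the lysosomal acid lipase, stood at 395, 283, 289 and 322 CPM in Leydig-like cells against 41.5, 47.0, 43.8 and 12.0 CPM in Sertoli-like cells (3.47 ± 0.38, adjusted p = 0.000364). LRP8, a lipoprotein receptor of the same family as the low density lipoprotein receptor, ran the other way at 2.25, 3.28, 8.25 and 8.09 CPM against 64.9, 78.7, 69.2 and 142 CPM (-4.18 ± 0.27, adjusted p = 3.65e-05). The 60-day Leydig-like level of LRP8 rests on few UMIs, since that class sum held 242435 UMIs in all. ABCG1, an LXR-driven exporter, was higher in macrophage-like cells, with 5.05, 16.3, 16.0 and 13.7 CPM against 0.0896 to 1.05 CPM in Sertoli-like cells (5.75 ± 0.65, adjusted p = 0.000102). It rests on 3 to 20 UMIs per library in macrophage-like cells.

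The ages differed by class. Ratios of the 90-day to the 7-day library are given with exact 95% intervals for counting error only, and a gene was counted as higher or lower when the levels were at least 1.5 times apart and the interval excluded no change. In Leydig-like cells, which lay mostly in 1 Leiden cluster at each age, 7 of 29 measured members were higher at 90 days and 9 lower, while 34.6% of 12181 genes were higher and 9.44% lower. The members' median log2 ratio was -0.39 and that of all genes 0.44. With TMM scaling the counts were 6 higher and 14 lower, beside 24.1% and 15.7% of all genes.

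SCARB1 had the lowest Leydig-like ratio, from 886 CPM at 7 days to 238 CPM at 90 days, which is 3.73 times lower (log2 ratio -1.90, interval -2.09 to -1.71). ACAT2 (-1.60, interval -1.97 to -1.25), NPC2 (-1.60), SOAT1 (-1.58), IDI1 (-1.53) and NPC1 (-1.47) were also lower at 90 days. FDPS gave -1.65 from 31 and 2 UMIs, with an interval of -4.75 to 0.33 that holds no change. INSIG1 went the other way, with 23.9, 28.3, 24.7 and 118 CPM, so the 90-day library stood 4.95 times above the 7-day library (2.31, interval 1.93 to 2.69). LIPE (1.75, interval 0.77 to 2.70) and SC5D (1.496, interval 1.11 to 1.87) followed, LIPE from 25 and 17 UMIs. The Leydig markers themselves were lower at 90 days (34444 against 67301 CPM), and their part in these ratios was not tested.

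The Leydig-like class did not move in 1 direction. At 30 against 7 days 12 members were higher and 3 lower, beside 11.5% and 8.31% of all genes. HMGCS1 (1.02), NSDHL (1.11) and SC5D (1.25) were the highest, and NPC2 (-1.24) the lowest. With TMM scaling the counts were 7 and 4, beside 9.43% and 10.1%. At 60 against 30 days 14 were lower and 2 higher, beside 6.25% and 18.6% of all genes. Of the 14, MSMO1 (-3.26), IDI1 (-2.85), ACAT2 (-2.72) and MVD (-2.61) had the lowest ratios, and ABCA1 (3.34) was one of the 2 higher genes. LIPE went from 12 to 0 UMIs, with an interval that holds no change. This step rests on the 65 cells of the 60-day library, whose marker level and immediate early genes stood apart as given above. At 90 against 60 days 8 of 28 were higher and 5 lower, beside 9.16% and 8.76% of all genes. LIPE, from 0 to 17 UMIs, is among the 8.

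**Figure D4:**
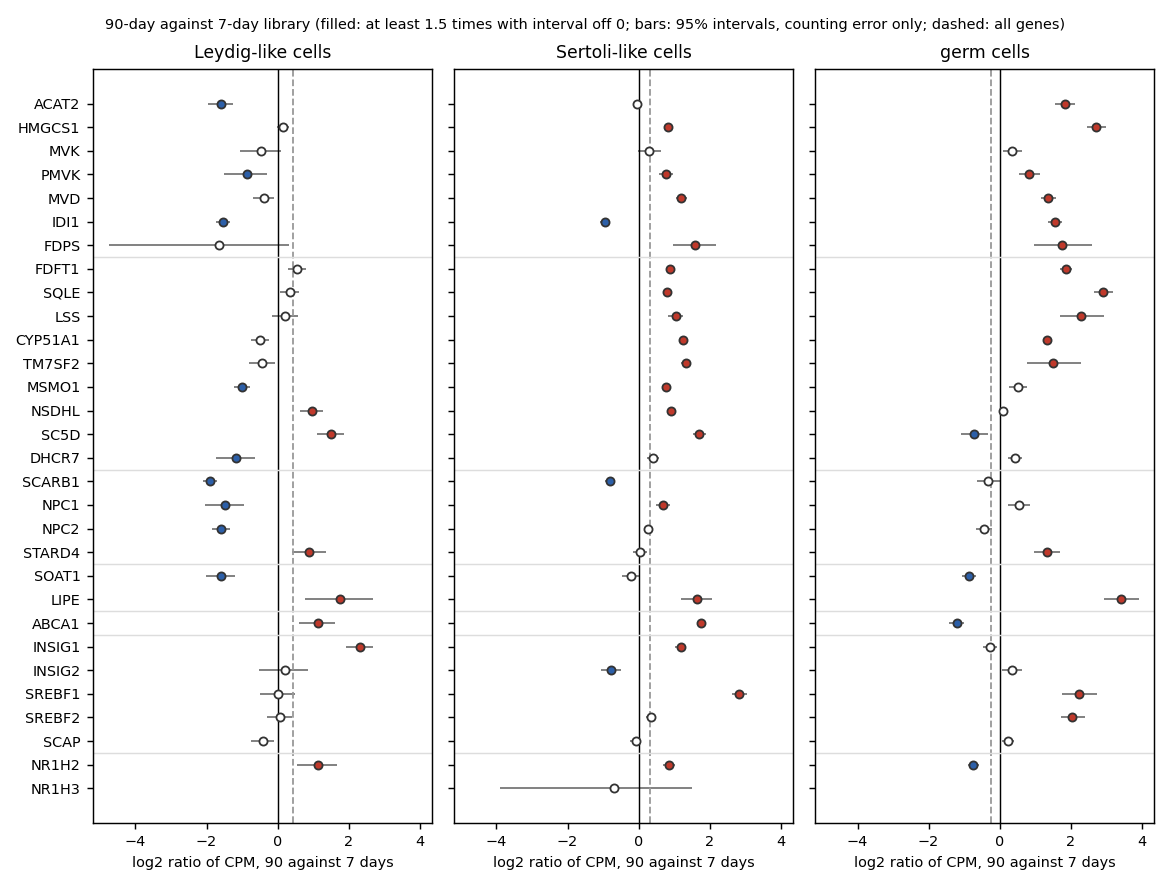
Log2 ratio of CPM at 90 against 7 days per gene in Leydig-like, Sertoli-like and germ-like cells, with 1 library per age and 95% intervals for counting error only. Filled points are at least 1.5 times apart with an interval off 0, and dashed lines mark the median of all genes. Leydig-like cells have 7 higher and 9 lower genes, Sertoli-like cells 18 and 3, and germ-like cells 15 and 4.

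Sertoli-like cells had 18 of 30 members higher at 90 days and 3 lower, beside 36.7% and 18.2% of 18783 genes. The ages fell in different Leiden clusters, with 4304 of 5713 cells in cluster 0 at 7 days, 3693 of 4974 in cluster 1 at 30 days, 2282 of 2991 in cluster 5 at 60 days and 1205 of 1218 in cluster 8 at 90 days. The members' median was 0.79 and that of all genes 0.31. Of the 9 sterol genes 8 were higher. SREBF1 had the highest ratio, with 7.17, 11.4, 18.2 and 50.9 CPM, higher at each later age and 7.09 times higher at 90 than at 7 days (2.83, interval 2.62 to 3.04). ABCA1 was also higher at each later age (39.2, 58.0, 96.1 and 133 CPM, log2 ratio 1.77, interval 1.66 to 1.87), and SC5D followed at 1.71. IDI1 (-0.96), SCARB1 (-0.81) and INSIG2 (-0.77) were the 3 lower genes, INSIG2 with 19.4, 17.3, 24.8 and 11.4 CPM. IDI1 was lower at each later age, at 98.6, 81.6, 71.8 and 50.8 CPM. With TMM scaling 17 were higher and 3 lower, beside 31.8% and 22.6% of all genes.

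At 30 against 7 days 10 members were higher and 1 lower, beside 13.5% and 10.3% of all genes, with SC5D (1.16), TM7SF2 (1.11) and SQLE (0.96) highest. At 60 against 30 days 3 were higher and 4 lower, beside 18.2% and 6.82%. At 90 against 60 days 11 of 29 were higher and 2 lower, beside 26.2% and 17.6%, with LIPE (2.17), SREBF1 (1.48) and MVD (1.09) highest and INSIG2 (-1.12) and SOAT1 (-0.94) lower. With TMM scaling the counts of this step were 8 and 2, beside 24.6% and 19.1%. Spermatid markers stood higher in every class at 90 days, as given above. Immediate early genes stood at 16300, 15345, 20483 and 5942 CPM in Sertoli-like cells over the 4 ages, and stromal markers at 1491, 1009, 897 and 278 CPM. The part of these 3 lists in the 90-day ratios was not tested.

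Germ-like cells had 15 of 29 members higher at 90 days and 4 lower, beside 23.8% and 35.8% of 22255 genes. Here too the clusters changed with age: clusters 19 and 20 held 302 and 203 of the 510 cells at 7 days, 471 and 399 of 882 at 30 days and 53 each of 178 at 60 days, when 48 lay in the unnamed cluster 3. Clusters 7 and 12 held 1269 and 741 of 2364 at 90 days. The members' median was 0.84 and that of all genes -0.25. Of the 7 mevalonate genes 6 were higher. SQLE stood at 12.9, 18.2, 40.7 and 97.3 CPM (log2 ratio 2.91, interval 2.65 to 3.18) and HMGCS1 at 13.3, 14.8, 36.0 and 87.8 CPM (2.72, interval 2.46 to 2.98). Both were higher at each later age, by under 1.5 times from 7 to 30 days. LIPE stood at 3.68, 4.39, 4.61 and 39.0 CPM, 10.6 times higher at 90 than at 7 days (3.40, interval 2.93 to 3.92). ABCA1 (-1.21), SOAT1 (-0.86), NR1H2 (-0.74) and SC5D (-0.71) were the 4 lower genes. ABCA1 stood at 43.0, 27.4, 49.9 and 18.6 CPM, SOAT1 at 46.7, 50.7, 28.5 and 25.7 CPM and NR1H2 at 61.2, 51.6, 68.7 and 36.7 CPM. With free RNA subtracted the ratios of ACAT2, SQLE, HMGCS1 and IDI1 were 2.93, 3.66, 3.48 and 2.18, against 1.84, 2.91, 2.72 and 1.56 before, and those of SREBF2, LSS and ABCA1 were 2.70, 3.02 and -1.76 against 2.05, 2.29 and -1.21. With TMM scaling 17 were higher and 3 lower, beside 27% and 32.2% of all genes.

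Germ-like cells differed little at 30 against 7 days, with 2 members higher and 1 lower beside 4.82% and 4.56% of all genes (1 and 1 with TMM scaling, beside 4.45% and 5%). At 60 against 30 days 10 were higher and 1 lower, beside 11% and 4.67% (10 and 3 with TMM scaling, beside 8.85% and 6.39%). LSS (1.66), HMGCS1 (1.28), SQLE (1.16) and SREBF1 (1.15) were among the 10, at an age when the spermatid markers stood at 36.0 CPM in this class. The 60-day class held 178 cells, and its 14 Sertoli markers summed to 1065 CPM against 519 CPM at 30 days. Its immediate early genes stood at 2417 CPM against 528 CPM at 30 days, and the part of either in this step was not tested. At 90 against 60 days 10 were higher and 4 lower, beside 16.7% and 29.8% (13 and 2 with TMM scaling, beside 22.1% and 23.7%), and LIPE (3.08), CYP51A1 (1.61) and HMGCS1 (1.29) had the highest ratios. The germ-like class at 90 days holds stages that the younger libraries lack, since 849 of its 2364 cells passed the spermatid gate. Without those cells the 90 against 7 day counts were 18 higher and 4 lower. Shares of all genes are not given for that cell set, so these counts cannot be set against a background. CYP51A1 moved from 1.35 to 0.64, and LIPE from 3.40 to 2.15.

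Within the 90-day germ-like cells, 3 members were higher in the 849 spermatid-gated cells than in the other 1515, and 18 were lower, of 29 measured. Of all 18916 genes, 27.1% were higher and 34.4% lower, and the medians were -0.79 for the members and -0.37 for all genes. The 3 higher genes stood far from the rest. CYP51A1 had 610.0 CPM in spermatid-gated cells and 118 CPM in the others (log2 ratio 2.37, interval 2.27 to 2.47). NSDHL had 279.6 against 61.8 CPM (2.18, interval 2.03 to 2.32), and LIPE 165 against 16.4 CPM (3.33, interval 3.10 to 3.57). CYP51A1 and NSDHL act on the methyl groups of lanosterol, and LIPE is known to have a testis form in spermatids. SCAP (-2.41), DHCR7 (-2.24), MVD (-1.79), IDI1 (-1.77) and PMVK (-1.68) had the lowest ratios. This is 1 library, so there is no test.

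**Figure D5:**
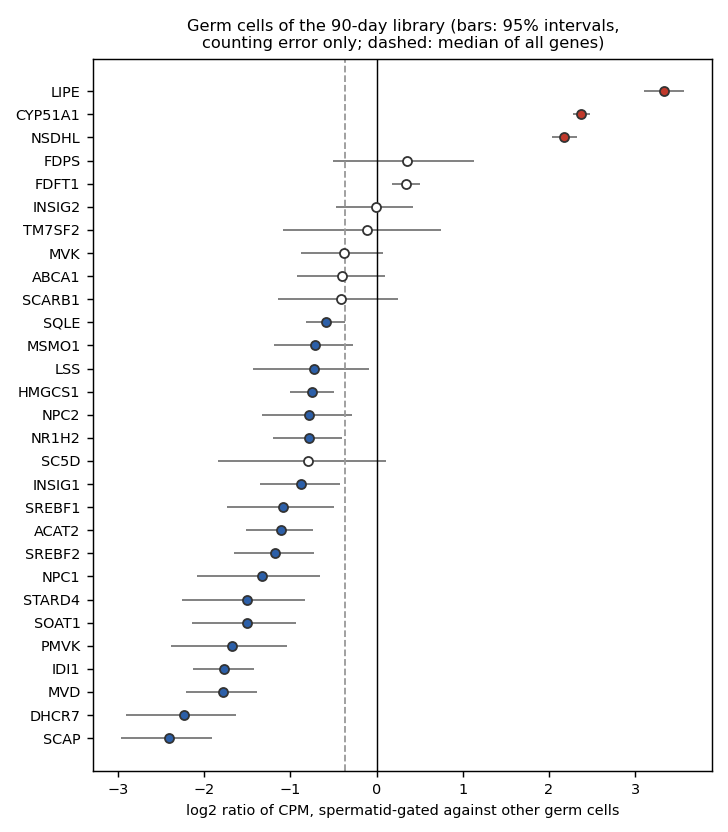
Log2 ratio of CPM between spermatid-gated and other germ-like cells of the 90-day library for 29 genes, with 95% intervals for counting error only and a dashed line at the median of all genes. LIPE, CYP51A1 and NSDHL lie above 2, and 18 genes are lower in spermatid-gated cells.

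CYP51A1 was higher at 90 days in 3 further classes. It stood at 18.3, 13.8, 17.8 and 100.2 CPM in macrophage-like cells, at 22.6, 32.0, 29.4 and 105 CPM in stromal-like cells and at 17.7, 23.7, 24.6 and 68.0 CPM in endothelial-like cells. NSDHL stood at 22.1, 12.2, 20.5 and 82.0 CPM in macrophage-like cells. LIPE stood at 5.45, 3.91, 4.55 and 22.1 CPM in stromal-like cells and at 4.43, 5.82, 2.05 and 13.7 CPM in endothelial-like cells. In macrophage-like cells LIPE had only 2, 0, 1 and 2 UMIs. Leydig-like cells ran differently for CYP51A1, with 221, 303, 120 and 157 CPM, lower at 90 than at 7 days (log2 ratio -0.50, under 1.5 times). Beside these values, all 11 spermatid markers together stood at 1175 to 2828 CPM in each class outside the germ gate at 90 days, and at no more than 15.3 CPM there at the younger ages. The part of spermatid transcripts in the 90-day levels of CYP51A1, NSDHL and LIPE in other classes was not tested. With free RNA subtracted, the Sertoli-like 90 against 7 day log2 ratios were 1.23 for CYP51A1, 0.92 for NSDHL and 1.31 for LIPE, against 1.25, 0.90 and 1.64 before. The subtraction took a fixed 10% of each class sum, in the mix of all used cells of the library. That share was not fitted to the spermatid markers, so these ratios do not show how much spermatid transcript remained.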

How the data were processed

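Single-cell transcripts of pig testis were measured in 4 libraries, 1 per age. The deposited values are raw counts of UMIs per gene and cell barcode, which the authors made with Cell Ranger (5.0.1 per the file headers), bcl2fastq and Scanpy 1.7.1 on Sscrofa11.1, per the submitters' processing notes. Droplets and settings used in cell calling are not given in the sources used here. The libraries held 45717373 to 96133720 UMIs.

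Cells with at least 1000 UMIs, at least 500 genes and at most 15% of UMIs from 13 mitochondrial genes were kept (55798), and the share of cells expected to be doublets (0.8% per 1000 cells) with the highest Scrublet scores was removed. Each cell was gated by its UMIs from marker genes per 10000, with the best class at least 3 times above the next. The thresholds were 40 for Leydig and Sertoli, 5 for early germ, 60 for spermatid, 80 for stromal, 20 for endothelial and macrophage and 15 for lymphoid markers. They were set after the marker distributions were seen, without the members' values. Cells with mixed markers, 890 to 2543 per library, were in none of the gated classes. Those with a Leydig, Sertoli or germ score past its threshold were also left out of the other cells (3.50 to 13.3% of cells per library), and the rest stayed among the other cells.

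UMIs were summed per class and library. Class differences were tested on all genes with edgeR 4.0.16 (R 4.3.3) quasi-likelihood tests, TMM scaling, a filter on low counts and library as block. P-values were Benjamini-Hochberg adjusted over all genes tested. Ages were compared as CPM ratios with exact conditional binomial intervals, for genes whose UMIs in the pair of libraries came to 10 or more, and these intervals and the Poisson intervals cover counting error only. Nothing says that libraries came from separate animals, so the p-values measure the spread of class differences over these 4 libraries. The class comparisons share the Sertoli-like or Leydig-like sums. Scripts were tested on simulated data.

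The members and the other gene lists were chosen with earlier results of these data known. Every member is accounted for. Genes named were the 3 to 5 largest changes in each direction per class comparison, the 3 highest and 3 lowest 90 against 7 day ratios per class, and members that complete a role, and values per library are given for most of them. Gene positions come from RefSeq's table for Sscrofa11.1, which held 27 of the 30 members by symbol. No sequences were used here. Alternatives were DESeq2 1.42.0, no filter, all classes in 1 fit, no block, each library left out, a stricter gate, Leiden clusters (Scanpy 1.11.5), other doublet and cell filters, subtraction of free RNA (a fixed 10% of each class sum), TMM or CPM scaling, and the mean over cells. The Leiden clusters were built on 2000 variable genes, and 3 of these were members.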

Additional observations from a re-analysis of the deposited data

Results flagged for a closer look

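For 6 genes the 90-day and 7-day libraries differed in opposite directions between cell classes, past 1.5 times in each class named and with both CPM and TMM scaling. None of these differences between classes was tested, because each age is 1 library. IDI1, the isoprene isomerase, had log2 ratios of -1.534 in Leydig-like and -0.9574 in Sertoli-like cells but 1.555 in germ-like cells. ACAT2, the entry thiolase, had -1.599 in Leydig-like and 1.837 in germ-like cells. PMVK, phosphomevalonate kinase, had -0.8739 in Leydig-like cells, 0.7689 in Sertoli-like cells and 0.8387 in germ-like cells. MSMO1, the methyl sterol oxidase, had -0.9959 in Leydig-like and 0.7745 in Sertoli-like cells.

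The exporter ABCA1 and the LXR beta gene NR1H2 split the other way. ABCA1 had log2 ratios of 1.125 in Leydig-like and 1.765 in Sertoli-like cells against -1.212 in germ-like cells. NR1H2 had 1.126 in Leydig-like and 0.8688 in Sertoli-like cells against -0.7378 in germ-like cells. The germ-like cells of the 90-day library included 849 spermatid-gated cells that the younger libraries lack.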

How the results depend on the processing

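Fold changes of members called in a class comparison, over all alternatives, kept direction and call in 1412 cases, lost the call in 96 and reversed in 1, which was DHCR7 in germ-like against Sertoli-like cells (-0.68 with TMM, 0.03859 with CPM scaling, adjusted p = 0.88). Members not called are outside this count, and with CPM scaling 5 of them changed sign in that comparison, 3 in Leydig-like against other cells and 4 in macrophage-like against Sertoli-like cells. The 90 against 7 day ratios past 1.5 times stayed within their error in 422 cases and moved in 44, with none reversed. Smaller ratios changed sign with TMM for HMGCS1, INSIG2, LSS, SREBF1 and SREBF2 in Leydig-like cells and STARD4 in Sertoli-like cells. For germ-like against Sertoli-like cells CPM scaling gave 3 higher and 13 lower members in place of 0 and 20, since it moves the median of all genes from -0.01 to 0.70. It moved that median from -0.05 to -0.24 for Leydig-like against Sertoli-like cells, from -0.39 to -0.79 for Leydig-like against germ-like cells and from -0.17 to -0.46 against other cells. Higher members then came to 15, 20 and 23, beside 12.3%, 12.9% and 9.18% of all genes. Lower members came to 0, 0 and 1, beside 21.7%, 43.3% and 32.1%. For germ-like against Sertoli-like cells, one fit over all classes and the fit without the 90-day library gave 1 higher. For Leydig-like against Sertoli-like cells, 1 member was lower with no filter on low counts, with the stricter cell filter (2000 UMIs, 1000 genes, 10% mitochondrial) and without the 60-day library, in place of 0. For Leydig-like against other cells the 1 lower member became 0 with all classes in 1 fit, without the library block, without doublet removal and with free RNA subtracted. Leydig-like cells at 90 against 7 days had 14 lower members with TMM in place of 9.

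Leaving out 1 library at a time gave 12 to 19 higher and 0 to 1 lower members for Leydig-like against Sertoli-like cells, 0 to 1 higher and 15 to 24 lower for germ-like against Sertoli-like cells, and 18 to 24 higher for Leydig-like against germ-like cells. It gave 22 to 24 higher and 0 to 1 lower for Leydig-like against other cells, and 3 to 6 higher and 8 to 13 lower for macrophage-like against Sertoli-like cells. The main fits pair the classes of a library as a block. Without the replicate block the counts, in the same order, were 16 and 0, 0 and 18, 22 and 0, 23 and 0, and 6 and 11 (higher and lower). Shares of all genes are not given for these fits or for those that left out 1 library. The stricter cell filter left under 50 Leydig-like cells at 60 days, so that fit used 3 libraries. The automatic doublet threshold removed 0 cells at 60 days. Depth limits FDPS, LIPE and NR1H3, each at 31 or fewer UMIs in every Leydig-like sum. It also limits other members at 60 days, among them PMVK, MVK, STARD4 and MVD, whose levels rest on few UMIs in a Leydig-like sum of 242435 UMIs.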

Other observations

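One feature outside the 30 carries the symbol EBP in the reference table, by its Ensembl identifier, although the count tables give it no symbol. EBP is the sterol isomerase of the late pathway. That feature stood at 233, 339, 41.2 and 43.5 CPM in Leydig-like cells at 7, 30, 60 and 90 days and at 43.2, 51.4, 33.4 and 34.3 CPM in Sertoli-like cells. It stood at 12.7, 16.5, 24.7 and 33.3 CPM in germ-like cells and at 39.1, 28.5, 24.03 and 18.2 CPM in macrophage-like cells. Leydig-like cells had the highest level of these 4 classes in each library. At 60 days that level rests on 10 UMIs, and its interval for counting error (19.8 to 75.9 CPM) held the Sertoli-like level. At 90 days it rests on 43 UMIs, and its interval (31.5 to 58.6 CPM) also held the Sertoli-like level. The order of Leydig-like and Sertoli-like cells at 60 and 90 days is therefore within counting error.

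Among the other cholesterol genes, CYP27A1, a mitochondrial sterol 27-hydroxylase, was lower in Leydig-like than in Sertoli-like cells (log2 fold change -1.84 ± 0.25), at 4.49, 7.76, 12.4 and 9.10 CPM against 17.4, 34.8, 42.0 and 42.4 CPM. CYP7B1, an oxysterol 7-hydroxylase, was higher in germ-like than in Sertoli-like cells (2.94 ± 0.37), and its germ-like level was 52.8, 32.8, 24.7 and 4.99 CPM over the 4 ages. VLDLR, a lipoprotein receptor, was higher in Leydig-like than in Sertoli-like cells (1.76 ± 0.43), at 3.06, 6.86, 24.7 and 37.4 CPM in Leydig-like cells over the ages. The 60-day Leydig-like levels of VLDLR and CYP27A1 rest on few UMIs, since that class sum held 242435 UMIs in all. Each fold change passed an adjusted p of 0.05 in edgeR over all genes, and the age courses have no test.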
